A study of Homo sapiens with 15 samples.

Results

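The BH3-only genes encode the proteins that set off the mitochondrial route of apoptosis. Each of these proteins carries a short BH3 helix that fits into a groove of the BCL2 family. Some of them (BIM, BID, PUMA) can bind all BCL2-like survival proteins and can also switch on the pore formers BAX and BAK, whereas others (NOXA, BAD, HRK, BMF, BIK) occupy a narrower choice of survival proteins and so release the first kind. In blood cells BIM and PUMA are best known for death after loss of a growth signal or DNA damage, BMF and BIK are often described as genes that respond to histone deacetylase (HDAC) inhibitors, and BID links death receptors to mitochondria once caspase-8 has cut it.

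The members were taken by gene symbol: BCL2L11 (the gene of BIM), BIK, BMF, PMAIP1 (NOXA), BBC3 (PUMA), HRK, BID and BAD. These are 8 of the 60649 genes in the deposited count table, and all 8 passed the filter on low counts, BIK and HRK only through the treated libraries. The counts came from poly(A) mRNA sequencing of K562, an established chronic myeloid leukaemia line that carries the BCR-ABL fusion and no functional p53. Martinostat, a hydroxamate inhibitor of several HDACs, was given for 24 h at 0.15, 0.25, 0.5 or 1 µM, next to cells without it, with 3 libraries numbered as biological replicates in each of the 5 groups. All groups are the same parental line in RPMI-1640 medium with serum, with no other drug named, so the values describe 1 cell line at 1 time point. The labels give no solvent for the untreated cells.

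Library totals ran from 23755510 to 32805574 counts. The third libraries at 0.25 and 0.5 µM stood apart from the other 13 on the third principal component, at 70.1 and 75.4 against 16 or lower, and values without both are given where they change a call. All 8 erythroid markers of K562 were found in untreated cells, from 28.4 CPM for EPOR to 1230 CPM for TFRC, where CPM (counts-per-million) is the count scaled to a common library size. All 8 of them, GATA1 and KLF1 among them, were called lower at 0.5 and at 1 µM, beside 27.6% and 27.5% of all genes. With library totals in place of the scaled library sizes, 7 and 6 were called lower and 0 higher, beside 19.9% and 20.1% of all genes called lower. Of 8 markers of T cells, B cells, monocytes and fibroblasts, MS4A1 had 0 counts in untreated cells. The list summed to between 35.4 and 42.1 CPM there and to between 313 and 501 CPM at 1 µM, where COL1A1 alone averaged 398 CPM. Of the 7 tested, 5 were called higher and 0 lower at the lowest dose, beside 31.9% and 19.4% of all genes. At 1 µM the numbers were 3 and 3, beside 38.8% and 27.5% of all genes, and 4 and 2 with library totals. The part of these markers in the results below was not tested. In bulk RNA a change in each cell and a change in the share of cells cannot be told apart.

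Upstream sequence is shown for BMF, the member with the largest rise from a level that could be measured in untreated cells, and for BID and PMAIP1, which were both lower at the high doses. RefSeq (GRCh38.p14) promoter windows were found for 7 of the 8 members, all but BIK. Printed are the 200 bases before the first start site listed, 5′ to 3′ on the strand of the gene. Capitals mark the GC box GGGCGG and the CCAAT box CCAAT on either strand, letters that were chosen with the sequences in view. RefSeq lists 5 windows for BID and 2 for BMF, and the BID stretch lies within the gene as annotated by GENCODE, whose first start is further upstream.
BMF, chr15:40108880-40109079, minus strand: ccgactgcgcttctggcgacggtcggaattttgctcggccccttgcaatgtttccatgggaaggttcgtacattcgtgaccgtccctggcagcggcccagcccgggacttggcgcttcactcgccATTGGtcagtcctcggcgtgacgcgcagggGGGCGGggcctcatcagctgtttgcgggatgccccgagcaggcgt
BID, chr22:17774470-17774669, minus strand: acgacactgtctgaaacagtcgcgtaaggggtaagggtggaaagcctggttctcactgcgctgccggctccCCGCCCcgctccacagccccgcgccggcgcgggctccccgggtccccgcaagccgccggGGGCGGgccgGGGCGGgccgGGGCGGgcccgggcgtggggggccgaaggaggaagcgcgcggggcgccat
PMAIP1, chr18:59899796-59899995, plus strand: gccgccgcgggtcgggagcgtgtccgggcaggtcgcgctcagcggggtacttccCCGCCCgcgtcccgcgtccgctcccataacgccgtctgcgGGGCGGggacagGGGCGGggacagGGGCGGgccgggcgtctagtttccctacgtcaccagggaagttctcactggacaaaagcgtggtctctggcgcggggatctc

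The upstream stretch of BMF held 1 GC box and 1 CCAAT box. Those of BID and PMAIP1 held 4 GC boxes each and no CCAAT box. Among 27305 RefSeq windows of the same length, 39.9% held at least 1 GC box and 28.9% at least 1 CCAAT box, so neither motif is rare. The half-site TGACGT, read on both strands, was found in 6.62% of windows and once upstream of PMAIP1 and of BAD. The forkhead letters GTAAACA were found in 2.27% of windows and upstream of none of the 7 members. A match describes these letters only.

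Martinostat moved the BH3-only genes in both directions. BIK, BMF and HRK were higher than in untreated cells at all 4 doses, and BBC3 joined them at 0.5 and 1 µM. BIK and HRK were tested only because the treated libraries passed the filter; both were called at all 4 doses without a filter as well. BID and BCL2L11 were lower at all 4 doses and PMAIP1 at 0.5 and 1 µM, although the BCL2L11 calls did not hold under every scaling. BAD was not called at any dose. In numbers, 3 members were called higher and 2 lower at 0.15 µM, and the same held at 0.25 µM. At 0.5 µM and at 1 µM, 4 were called higher and 3 lower.

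The same tests over all 23711 genes give the background for these counts. At 0.15 µM 31.9% of all genes were called higher and 19.4% lower. At 0.25 µM the shares were 37.4% and 24.8%. At 0.5 µM they were 39.4% and 27.6%, and at the top dose 38.8% and 27.5%. The median log2 fold change of the 8 members was 0.41, 0.36, 0.92 and 0.96 at the 4 doses in rising order, beside 0.28, 0.32, 0.34 and 0.32 for all genes. The split between higher and lower depended on the scaling. With library totals in place of the scaled library sizes, 40.4% of all genes were called higher and 8.93% lower at 0.15 µM, and the members were split 4 to 1. At 1 µM the same choice gave 45.6% and 20.1%, and a split of the members of 5 to 2.

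**Figure D1:**
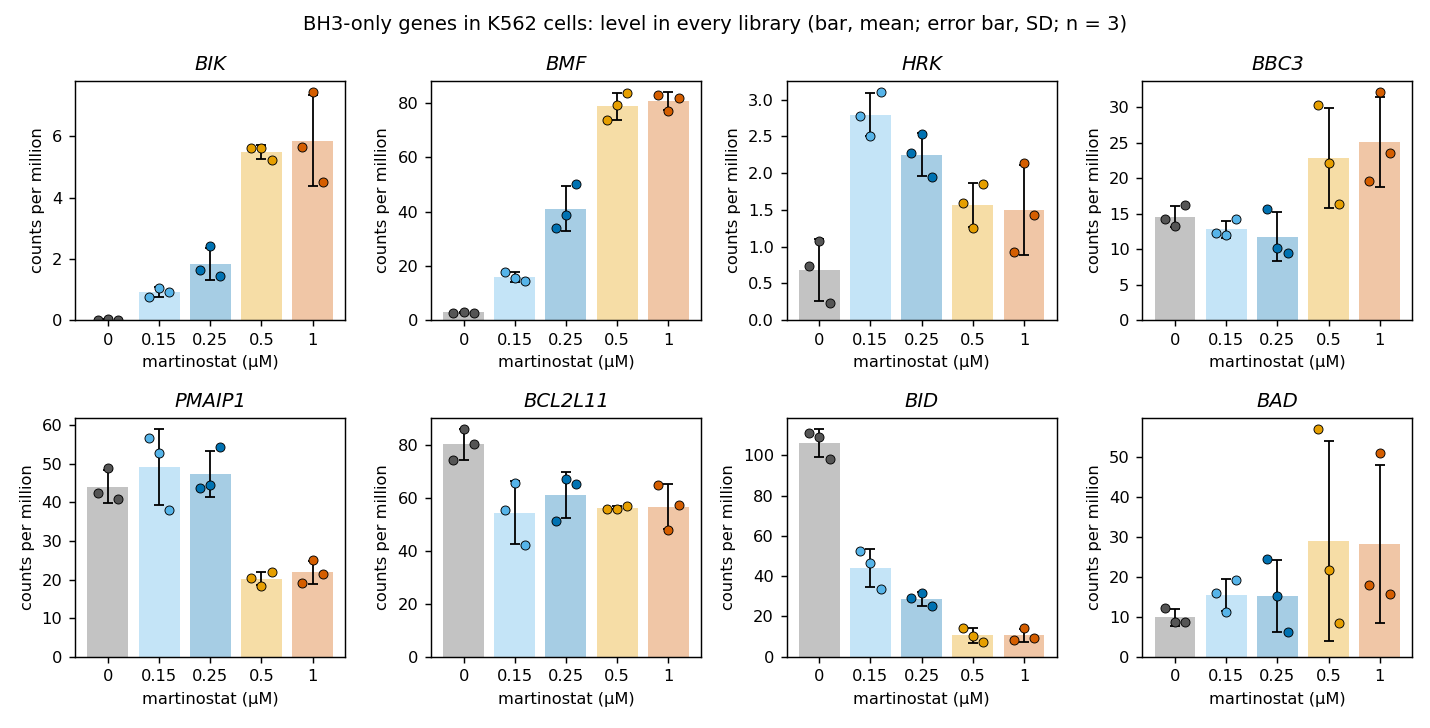
Level of each BH3-only gene in CPM (vertical axes from 0, each with its own range) at each martinostat dose in µM (horizontal axis). Points are the 3 libraries of a group, bars their mean and error bars their SD; BIK and BMF rise over the doses to 5.86 and 80.7 CPM at 1 µM, BID falls to 10.6 CPM, and the points of BAD spread from 8.4 to 57.1 CPM at 0.5 µM.

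BMF encodes a sensitizer that a dynein light chain holds at myosin motors until it is released. It had 64, 79 and 70 counts in the 3 untreated libraries, which corresponds to 2.62, 3.05 and 2.74 CPM. At 0.15 µM the libraries gave 17.9, 15.4 and 14.5 CPM, and at 0.25 µM 34.0, 38.8 and 50.2 CPM. They gave 73.8, 79.2 and 83.6 CPM at 0.5 µM and 83.1, 77.0 and 82.0 CPM at 1 µM. No group overlapped the group of the next lower dose until 0.5 µM, and the libraries at 0.5 and 1 µM lay in the same range. On the log2 scale BMF exceeded untreated cells by 2.51 at 0.15 µM (SE 0.17, adjusted p = 5.8e-10), or 5.68-fold. It was 3.87 at 0.25 µM (SE 0.17, adjusted p = 1.96e-12), 4.81 at 0.5 µM (SE 0.18, adjusted p = 1.01e-13) and 4.85 at 1 µM (SE 0.18, adjusted p = 9.25e-14), or 28.7-fold. None of the 26 other settings tried ended a BMF call against untreated cells.

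BIK is a sensitizer found mainly at the endoplasmic reticulum. It was close to absent from untreated cells, with 0, 1 and 0 counts. The treated libraries held 21, 30 and 27 counts at 0.15 µM and 48, 68 and 57 at 0.25 µM. They held 127, 134 and 192 at 0.5 µM and 159, 215 and 129 at 1 µM. In CPM the group means were 0.909 ± 0.161 (SD, n = 3), 1.83 ± 0.533, 5.48 ± 0.223 and 5.86 ± 1.48 in the order of the doses. Every treated library exceeded every untreated library, and the groups stayed apart up to 0.5 µM. Because the untreated cells gave 1 count in all, the size of the rise is known only roughly. The ratio of summed counts, scaled by library size, was 69 at 0.15 µM with an exact 95% counting interval from 12.0 to 2759, and 445 at 1 µM with an interval from 79.5 to 17610. These intervals cover counting error only. The adjusted p was 6.8e-07 at 0.15 µM and 1.66e-10 at 1 µM, but the gene had passed the filter only through the libraries in which it was high. With no filter it was called at each dose too (5.71 at 0.15 µM, adjusted p = 1.11e-13), and a filter of 10 counts in every library removed it.

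HRK, a sensitizer best known from neurons, was low throughout. The untreated libraries held 18, 28 and 6 counts, and those at 0.15 µM 79, 71 and 90. Counts were 67, 71 and 78 at 0.25 µM, 36, 30 and 68 at 0.5 µM and 26, 62 and 41 at 1 µM. HRK was thus highest at the lowest dose, at 2.79 ± 0.295 CPM against 0.684 ± 0.426 CPM in untreated cells, and averaged 1.5 ± 0.612 CPM at 1 µM, where 1 library lay within the untreated range. Log2 fold changes for HRK were 2.02 at 0.15 µM (SE 0.42, adjusted p = 0.000488) and 1.71 at 0.25 µM (SE 0.42, adjusted p = 0.00153). It was 1.19 at 0.5 µM (SE 0.42, adjusted p = 0.0178) and 1.13 at 1 µM (SE 0.42, adjusted p = 0.0247). The libraries at 1 µM were all below those at 0.15 µM, but the difference of -0.90 missed the threshold (SE 0.39, adjusted p = 0.0673). It passed in 4 of 25 other settings: with only the libraries compared (-0.89, adjusted p = 0.0192), without the third untreated library (-0.90, adjusted p = 0.0322), without the second library at 1 µM (-1.24, adjusted p = 0.0323) and with GC content as a term (-0.91, adjusted p = 0.0447). The calls at 0.5 and 1 µM were each lost in 3 of 25 other settings. Without the third untreated library, which had the 6 counts, the value at 0.5 µM was 0.78 (adjusted p = 0.0925) and that at 1 µM 0.71. The call at 0.5 µM was also lost without the third library there (1.05), and that at 1 µM without the second library there (0.78).

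BBC3 encodes PUMA, which binds every BCL2-like survival protein. Untreated libraries gave 14.3, 13.3 and 16.2 CPM. The values were 12.3, 12.0 and 14.2 CPM at 0.15 µM and 15.7, 10.2 and 9.41 CPM at 0.25 µM, which overlapped the untreated range. They rose to 30.3, 22.1 and 16.3 CPM at 0.5 µM and 19.6, 32.1 and 23.6 CPM at 1 µM, above all untreated libraries. For BBC3 the log2 fold change came to -0.19 at 0.15 µM (SE 0.23, adjusted p = 0.535) and -0.31 at 0.25 µM (SE 0.23, adjusted p = 0.256), and the sign of both turned with library totals and with scaling factors from genes of at least 10 CPM. It was 0.65 at 0.5 µM (SE 0.23, adjusted p = 0.0204) and 0.78 at 1 µM (SE 0.23, adjusted p = 0.00653), or 1.72-fold. Leaving out the first library at 0.5 µM gave 0.39 (adjusted p = 0.156), and leaving out the second at 1 µM gave 0.57 (adjusted p = 0.0559), and neither was called. The call at 0.5 µM was also lost without the first or the second untreated library, at 0.63 and 0.58. Without the first library at 0.25 µM, BBC3 was called lower there (-0.58, adjusted p = 0.049).

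**Figure D2:**
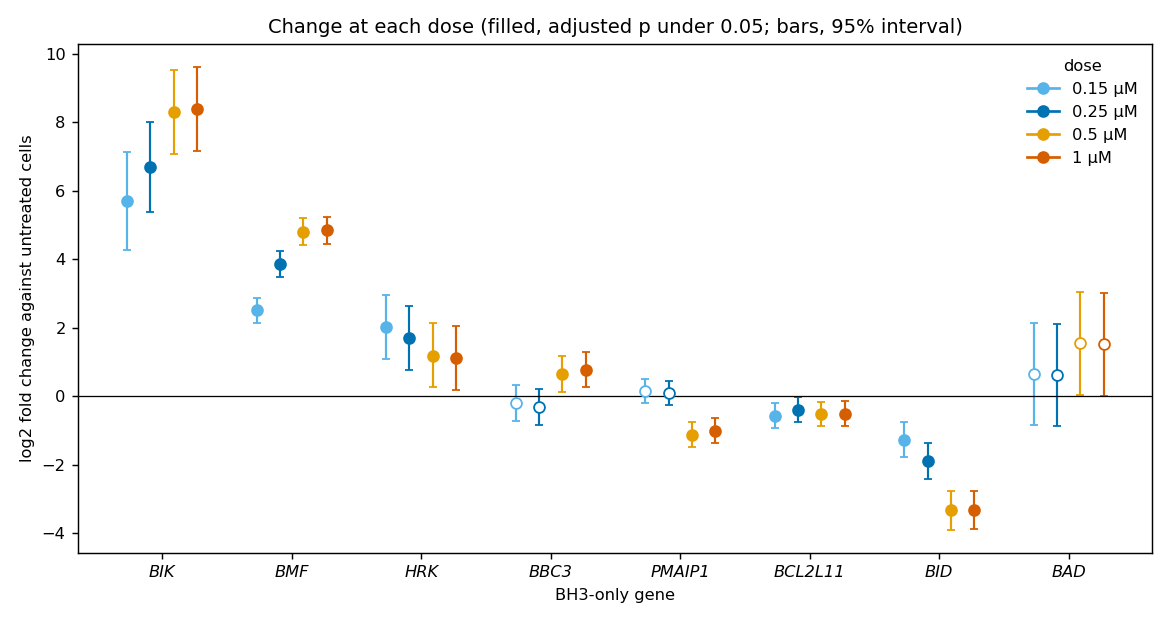
Log2 fold change against untreated cells (vertical axis) for each BH3-only gene (horizontal axis) at the 4 martinostat doses, with 95% intervals as bars and filled points at an adjusted p under 0.05. BIK and BMF lie highest, at 8.38 and 4.85 at 1 µM, BID lies lowest at -3.31, and all 4 points of BAD are open.

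PMAIP1 encodes NOXA, whose best known partner is MCL1. It had 42.4, 48.9 and 40.9 CPM in untreated cells. Its libraries gave 56.6, 52.8 and 38.1 CPM at 0.15 µM and 43.6, 44.4 and 54.3 CPM at 0.25 µM, which overlapped the untreated range. At 0.5 µM they gave 20.4, 18.4 and 21.9 CPM and at 1 µM 19.2, 25.1 and 21.4 CPM, all below every library of the lower doses. PMAIP1 had a log2 fold change of 0.16 at 0.15 µM (SE 0.16, adjusted p = 0.44) and 0.10 at 0.25 µM (SE 0.16, adjusted p = 0.59). It was -1.12 at 0.5 µM (SE 0.16, adjusted p = 7.4e-06) and -1.01 at 1 µM (SE 0.16, adjusted p = 2.44e-05), and both calls held in all 26 other settings. With library totals the 2 lower doses were called higher, at 0.52 (adjusted p = 0.0417) and 0.64 (adjusted p = 0.0111). At 0.25 µM PMAIP1 was also called higher with factors from genes of at least 10 CPM (0.53, adjusted p = 0.0146) and with 10 counts required in every library (0.39, adjusted p = 0.048).

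BID encodes the member that is cut by caspase-8. It fell over the doses. Untreated libraries gave 111, 109 and 98.1 CPM, and those at 0.15 µM 52.3, 46.5 and 33.6 CPM. The values were 29.3, 31.7 and 25.0 CPM at 0.25 µM, 14.1, 10.5 and 7.10 CPM at 0.5 µM and 8.09, 14.3 and 9.55 CPM at 1 µM. No group overlapped the next lower dose until 0.5 µM. The step from 0.15 to 0.25 µM was nonetheless not called (log2 fold change -0.62, SE 0.23, adjusted p = 0.0859). It was called in 3 of 26 other settings. Against untreated cells the log2 fold change of BID was -1.26 at 0.15 µM (SE 0.23, adjusted p = 0.000175) and -1.88 at 0.25 µM (SE 0.23, adjusted p = 1.72e-06). It was -3.33 at 0.5 µM (SE 0.25, adjusted p = 1.74e-09) and -3.31 at 1 µM (SE 0.25, adjusted p = 1.82e-09), a level 9.93-fold lower. None of the 26 other settings ended one of these calls.

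BCL2L11 encodes BIM. Untreated libraries gave 74.4, 85.9 and 80.5 CPM. The values were 55.6, 65.7 and 42.2 CPM at 0.15 µM and 51.2, 67.1 and 65.4 CPM at 0.25 µM. They were 56, 55.9 and 57.1 CPM at 0.5 µM and 64.9, 48.0 and 57.3 CPM at 1 µM. All 12 treated libraries were below the 3 untreated ones, and the doses overlapped each other. In log2 terms BCL2L11 changed by -0.56 (SE 0.16, adjusted p = 0.00746), -0.39 (SE 0.16, adjusted p = 0.0431), -0.51 (SE 0.16, adjusted p = 0.00959) and -0.50 (SE 0.16, adjusted p = 0.0109) in the order of the doses. These calls rest on the scaling. With library totals the values were -0.19, 0.14, -0.13 and -0.15 and none was called, and the call was also lost at each dose with scaling factors from genes of at least 10 CPM and with the filter that asked for 10 counts in every library. The call at 1 µM was also lost without the second library at that dose, at -0.39 (adjusted p = 0.0637). At 0.25 µM 14 of 26 other settings lost it, among them those without untreated library 2 or 3, 0.15 µM library 1, 0.25 µM library 1 or 3 or 1 µM library 3. Of the exon bases of BCL2L11, 10.8% lie under MIR4435-2HG on the other strand, a gene whose mean fell from 122 CPM without treatment to 29.9 CPM at 1 µM. The library kit marks strand, but no source says whether the counting used it, and the part of this overlap was not tested.

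BAD encodes a sensitizer that 14-3-3 proteins hold in the cytosol when it is phosphorylated. The untreated libraries gave 12.3, 8.69 and 8.69 CPM. At 0.15 µM the values were 16.1, 11.3 and 19.2 CPM and at 0.25 µM 24.4, 15.3 and 6.34 CPM. They were 57.1, 21.7 and 8.40 CPM at 0.5 µM and 18, 51.0 and 15.7 CPM at 1 µM. Single libraries at 0.5 and 1 µM were thus far above the rest of their groups, and the untreated range was overlapped at every dose but 1 µM. Its log2 fold change stood at 1.55 at 0.5 µM (SE 0.68, adjusted p = 0.0601) and 1.52 at 1 µM (SE 0.68, adjusted p = 0.0653), and 0.65 and 0.63 at the lower doses. Fitting only the libraries compared called BAD higher at 0.15 µM (0.68, adjusted p = 0.0046). At 0.5 and at 1 µM it passed the threshold in 10 of 26 other settings. At 0.5 µM these included the settings without the third library there (1.99, adjusted p = 0.0231) and without the second at 1 µM (1.55, adjusted p = 0.0362). At 1 µM they included those without the first or the third library at 0.5 µM (1.51 and 1.52) and without the third at 1 µM (1.80, adjusted p = 0.0465). Without both libraries that stood apart, the value was 2.05 at 0.5 µM (adjusted p = 0.0167) and 1.57 at 1 µM (adjusted p = 0.0349). Without the first library at 0.5 µM the value there was 0.59, and without the second at 1 µM the value there was 0.77.

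The level of BAD followed the base composition of the libraries. The longest transcript of BAD is 66.3% GC and that of BBC3 69.7%, beside 36.7% for PMAIP1 and 54.7% for BMF. The mean GC content of the counted genes, weighted by count, ran from 49.0% to 49.4% in untreated libraries. It ran from 49.9% to 50.9% at 0.15 µM, 48.6% to 50.3% at 0.25 µM, 49.4% to 50.7% at 0.5 µM and 50.3% to 50.8% at 1 µM. All libraries at 0.15 and 1 µM thus exceeded every untreated one. In all 5 groups the library with the highest BAD value was the one with the highest GC content. At every martinostat dose the lowest BAD value went with the lowest GC content. In untreated cells this could not be ranked, as replicates 2 and 3 both had 8.69 CPM, at 49.0% and 49.2% GC. Over the 15 libraries the deviations of BAD from its group means had a Pearson r of 0.90 with those of the GC content, as a description of libraries that share their groups. The same r was 0.82 for BBC3, -0.83 for BMF and -0.66 for BCL2L11.

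A fit with the GC content of the library as a further term, added after the data were seen, changed several values. This content was computed from the same counts and differed between untreated and treated groups. The fit therefore cannot fully separate it from the dose. BAD was then -1.09 (adjusted p = 0.032) at 0.15 µM and -0.15 (adjusted p = 0.75) at 0.5 µM, so its direction turned. BBC3 lost its calls at 0.5 and 1 µM, at 0.16 and 0.13, and was called lower at 0.15 µM (-0.76, adjusted p = 0.00269) and at 0.25 µM (-0.50, adjusted p = 0.00816). BCL2L11 was called only at 0.25 µM and HRK no longer at 1 µM (adjusted p = 0.101). BMF, BIK and BID were called at every dose in that fit too, with 5.16, 8.16 and -3.65 at 1 µM, and PMAIP1 at 0.5 and 1 µM with -0.94 and -0.75.

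**Figure D3:**
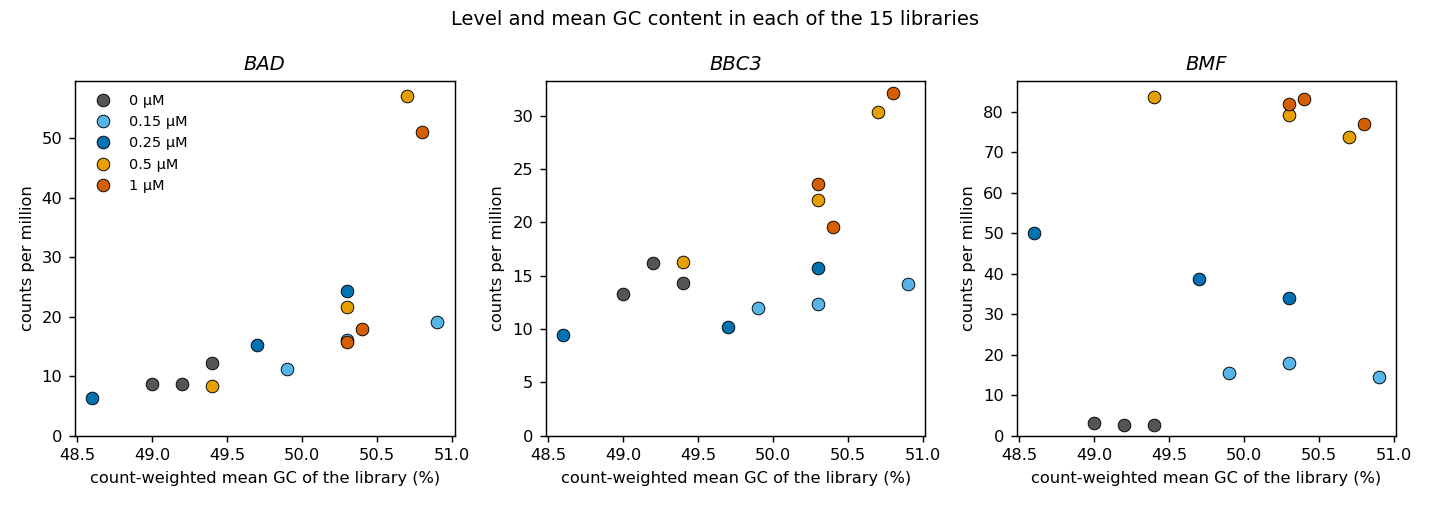
Level of BAD, BBC3 and BMF in CPM (vertical axes from 0) against the count-weighted mean GC content of the library in percent (horizontal axes), 1 point for each of the 15 libraries, coloured by martinostat dose. The highest BAD values of 57.1 and 51.0 CPM belong to libraries of 50.7% and 50.8% GC, while within each dose the lowest BMF value belongs to the library of highest GC.

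Between neighbouring doses, the step from 0.25 to 0.5 µM had 5 members called, against 2 from 0.15 to 0.25 µM. BMF (log2 fold change 0.94, SE 0.15), BIK (1.59, SE 0.30) and BBC3 (0.96, SE 0.24) rose there, with adjusted p = 6.46e-05, 0.000415 and 0.00401. PMAIP1 (-1.23, SE 0.16) and BID (-1.45, SE 0.24) fell, with adjusted p = 1.41e-05 and 0.000137. Of all genes tested, 14.4% were called higher and 16.0% lower in this step, and these 5 calls held in every other setting that kept the gene. From 0.15 to 0.25 µM BMF rose by 1.36 (SE 0.15, adjusted p = 2.48e-05). BIK rose by 1.00 (SE 0.32, adjusted p = 0.0454), a call that 13 of 25 other settings lost. Of all genes, 4.96% were called higher and 7.32% lower in that step.

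From 0.5 to 1 µM none of the 8 members was called. The count over all genes was 0 as well, with edgeR and with DESeq2, and 372 genes had an unadjusted p under 0.05 in edgeR. The members' log2 fold changes in this step lay between -0.07 for HRK and 0.13 for BBC3. The 95% interval was -0.29 to 0.35 for BMF and -0.51 to 0.55 for BID, but -1.49 to 1.42 for BAD, so a change of the last could have been missed. Between 0.15 and 1 µM, BMF (2.34), BIK (2.68) and BBC3 (0.97) were called higher and PMAIP1 (-1.17) and BID (-2.05) lower, beside 21.5% and 23.1% of all genes. In the test for any difference among the 5 groups, 7 of the 8 members and 73.6% of all genes were called. BAD was the exception, with an adjusted p of 0.201.

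To compare levels between genes, counts were divided by the length of the merged exons and scaled to the same sum in every library (TPM). In untreated cells the order was BID at 76.6 ± 5.72 TPM (SD, n = 3), PMAIP1 at 64.6 ± 5.88, BCL2L11 at 38.1 ± 2.2, BAD at 18.6 ± 4.21, BBC3 at 14.7 ± 1.46, BMF at 1.65 ± 0.113, HRK at 0.320 ± 0.198 and BIK at 0.0429 ± 0.0743. The libraries of BID and PMAIP1 overlapped, as did those of BAD and BBC3 and those of HRK and BIK, so those neighbours cannot be ranked. At 1 µM BAD averaged 63.0 ± 40.3 TPM and BMF 58.1 ± 5.43, and their libraries overlapped. PMAIP1 followed at 39.0 ± 3.53, BCL2L11 at 33.1 ± 6.33, BBC3 at 30.5 ± 6.18 and BIK at 23.9 ± 4.65, each overlapping the next. BID came to 9.32 ± 2.31 TPM, below BIK in every library, and HRK to 0.844 ± 0.303.

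The summed level of the 8 genes moved in opposite directions on the 2 scales. In TPM the sum was 215 ± 11.1 in untreated cells. With rising dose it came to 236 ± 36.9, 271 ± 33.2, 255 ± 35.2 and 258 ± 43.3, and untreated libraries between 202 and 221 overlapped those at 0.15 and 0.5 µM but not those at 0.25 and 1 µM. In CPM, the scale of the tests, it was 258 ± 11.1 in untreated cells and lower in the mean at each dose, with 196 ± 26.2, 209 ± 6.49, 225 ± 30.0 and 231 ± 22.9, and the ranges overlapped at 0.5 and 1 µM. By TPM, BID made up 35.7% of the sum in untreated cells and 3.59% at 1 µM. BMF went from 0.768% to 23.1% and BIK from 0.0194% to 9.25%. PMAIP1 held 30.1% of the sum without treatment, 38.5% at 0.15 µM and 15.3% at 1 µM. These shares depend on the length used: by genomic span, the length behind the deposited FPKM, PMAIP1 held 61.9% of the untreated sum and BID 15.8%.

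**Figure D4:**
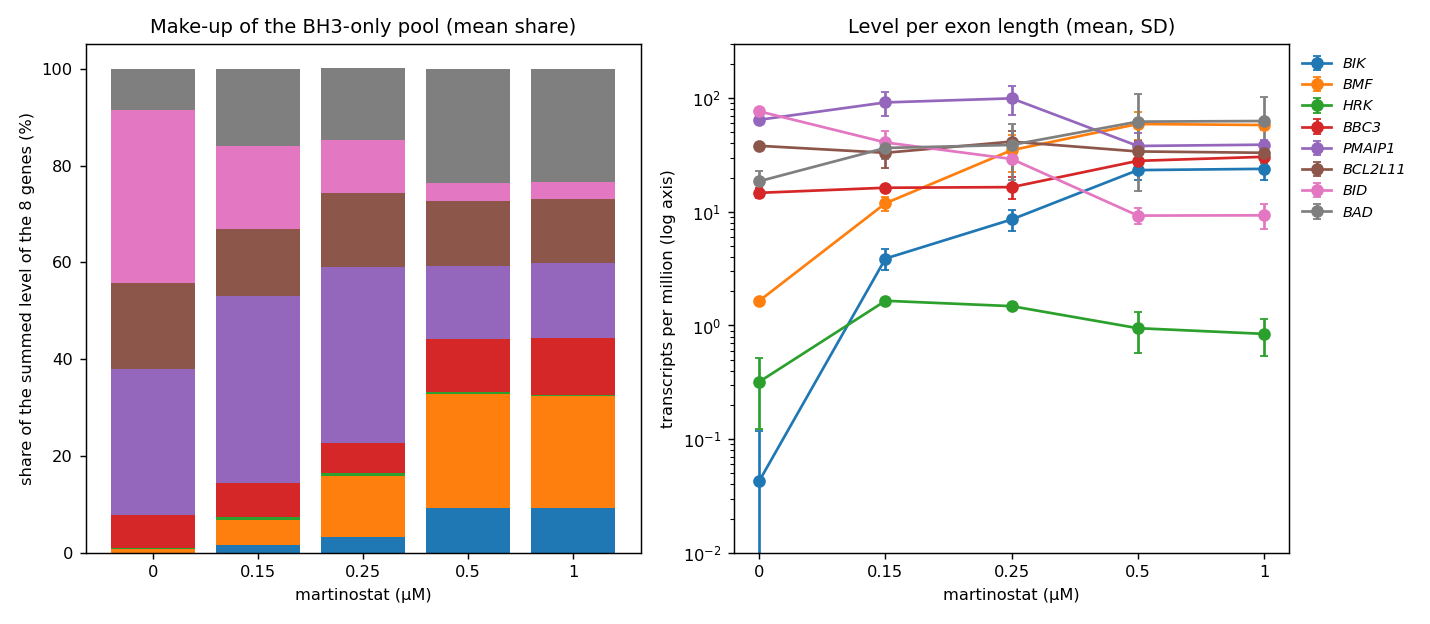
Left, mean share in percent of each BH3-only gene in the summed TPM of the 8 genes at each martinostat dose in µM; right, mean level of each gene in TPM on a log axis with the SD as bars, those of BIK in untreated cells running below the axis. BID shrinks from 35.7% to 3.59% of the sum and BMF grows from 0.768% to 23.1%.

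Across the 15 libraries, BIK and BMF had the most similar log2 CPM among the members (Pearson r = 0.984), and BMF and BID the most opposite (r = -0.947). The points share 5 dose groups, and the values are a description. PMAIP1 and BID had an r of 0.816, and PMAIP1 and BBC3 one of -0.821. Among the 10128 genes that averaged 10 CPM or more, the patterns nearest to BMF were those of ID2 (r = 0.996), CCNG2 and SESN3 (both 0.995). Those nearest to BIK were DISP3 (0.994), LGMN and ALPG (both 0.993), and those nearest to BID were ZNF749 (0.991), SERPINH1 and MRPL15 (both 0.988). BAD was nearest to DRAP1 (0.984), DGCR6L (0.983) and TNNI3 (0.974). PMAIP1 was nearest to the pseudogene ENSG00000215861 (0.977), MS4A4A (0.972) and SNX9 (0.971). BCL2L11 was nearest to NIPBL (0.963) and ELF2 (0.937), and BBC3 to WRAP53 (0.956), NOSIP (0.947) and TPI1 (0.945). HRK had no close match, with KLHDC8A (0.905), CDH24 (0.901) and P2RX4 (0.898) first. Genes that had an r of at least 0.9 numbered 1437 for BID, 850 for BIK and 792 for BMF, but 31 for BCL2L11 and 2 for HRK.

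The proteins that BH3-only proteins bind are the BCL2-like survival proteins and the pore formers. Of 9 such genes, 7 passed the filter; BCL2A1 and BCL2L10 had at most 4 counts in any group. At 0.15 µM 2 were called higher and 1 lower, and at 0.25 µM 1 and 2. At 0.5 µM the numbers were 1 and 4, and at 1 µM 1 and 2. With library totals they were 2 and 0, 3 and 0, 1 and 1, and 1 and 1 over the 4 doses, so the majority at 0.25 µM turned. Over all genes, library totals gave 49.3% higher and 12.9% lower at that dose, beside 37.4% and 24.8% with the scaled sizes. MCL1, the survival protein that NOXA and BIM bind, stood at 336 ± 11.7 CPM without treatment and at 865 ± 25.2 CPM at 1 µM (log2 fold change 1.36, SE 0.13, adjusted p = 3.11e-08), after 259 ± 5.62 CPM at 0.15 µM (-0.38, adjusted p = 0.0196). The call at 0.15 µM was lost with library totals (-0.02) and with factors from genes of at least 10 CPM (-0.12). It was kept with RLE, a further choice of scaling (-0.43, adjusted p = 0.00878). BCL2L1, the gene of BCL-XL, moved the other way. It was 132 ± 4.42 CPM in untreated cells, 254 ± 23.8 CPM at 0.15 µM (0.95, adjusted p = 1.97e-05) and 36.2 ± 2.52 CPM at 1 µM (-1.86, SE 0.15, adjusted p = 1.96e-09). Of the exon bases of BCL2L1, 41.3% lie under the other-strand gene ABALON, so its reads cannot be told apart there. BCL2L2 was lower at 1 µM (-0.73, SE 0.22, adjusted p = 0.00762), a call lost with library totals (-0.37) and with factors from genes of at least 10 CPM (-0.35). The pore formers BAX and BAK1 were not called at 0.15 or 1 µM, with -0.39 (SE 0.25) and 0.09 (SE 0.26) at 1 µM, and BAX was called lower at 0.25 µM (-0.59, adjusted p = 0.0472) and 0.5 µM (-0.71, adjusted p = 0.0187). With RLE, library totals or factors from genes of at least 10 CPM, 0 genes of this list were called lower at 0.25 µM, so the BAX call there was lost. At 0.5 µM only 1 gene of the list was called lower with library totals, and only 1 with factors from genes of at least 10 CPM, against 4 with RLE. BCL2L1 fell further than BAX there, to 34.9 ± 4.91 CPM, so the BAX call at 0.5 µM rests on the scaling too. BOK, which like BAX and BAK1 was singled out after its values were seen, was called higher at 0.15 µM (1.02, SE 0.23, adjusted p = 0.00126).

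Of 11 transcription factors known to act on BH3-only genes, the numbers called were 3 higher and 2 lower at the lowest dose, 5 and 4 at 0.25 µM, and 6 and 4 at both higher doses. With library totals the numbers were 6 and 0 at 0.15 µM and 6 and 2 at 0.25 µM. Over all genes, library totals gave 40.4% higher and 8.93% lower at 0.15 µM, beside 31.9% and 19.4% with the scaled sizes. At 0.25 µM the shares were 49.3% and 12.9%, beside 37.4% and 24.8%. JUN (2.87, SE 0.14, adjusted p = 2.41e-12) and ATF3 (2.72, SE 0.18, adjusted p = 2.06e-10), stress-induced partners in AP-1, had the highest log2 fold changes at 1 µM. MYC (-4.13, SE 0.27, adjusted p = 1.68e-10) and ATF4 (-1.32, SE 0.19, adjusted p = 6.09e-06), the factor of the integrated stress response, had the lowest. The part of these factors in the values of the members was not tested.

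Of 18 partners and modifiers of BH3-only proteins, such as 14-3-3 proteins, dynein light chains and kinases, 17 were tested. At 0.15 µM 2 were called higher and 6 lower, and at 0.25 µM 3 and 10. At 0.5 µM the numbers were 5 and 9, and at 1 µM 4 and 8. With library totals they were 3 and 2, 6 and 4, 6 and 5, and 4 and 6 over the 4 doses, so the majority turned at all but the top dose. The shares over all genes moved toward higher calls with library totals too, at every dose. PRKACA, a catalytic subunit of protein kinase A (1.97, SE 0.18, adjusted p = 2.15e-08), and the 14-3-3 gene SFN (1.76, SE 0.31, adjusted p = 5.29e-05) were highest at 1 µM. AKT1, a kinase that phosphorylates BAD (-2.0, SE 0.15, adjusted p = 1.02e-09), and the 14-3-3 gene YWHAH (-1.42, SE 0.13, adjusted p = 1.64e-08) were lowest.

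**Figure D5:**
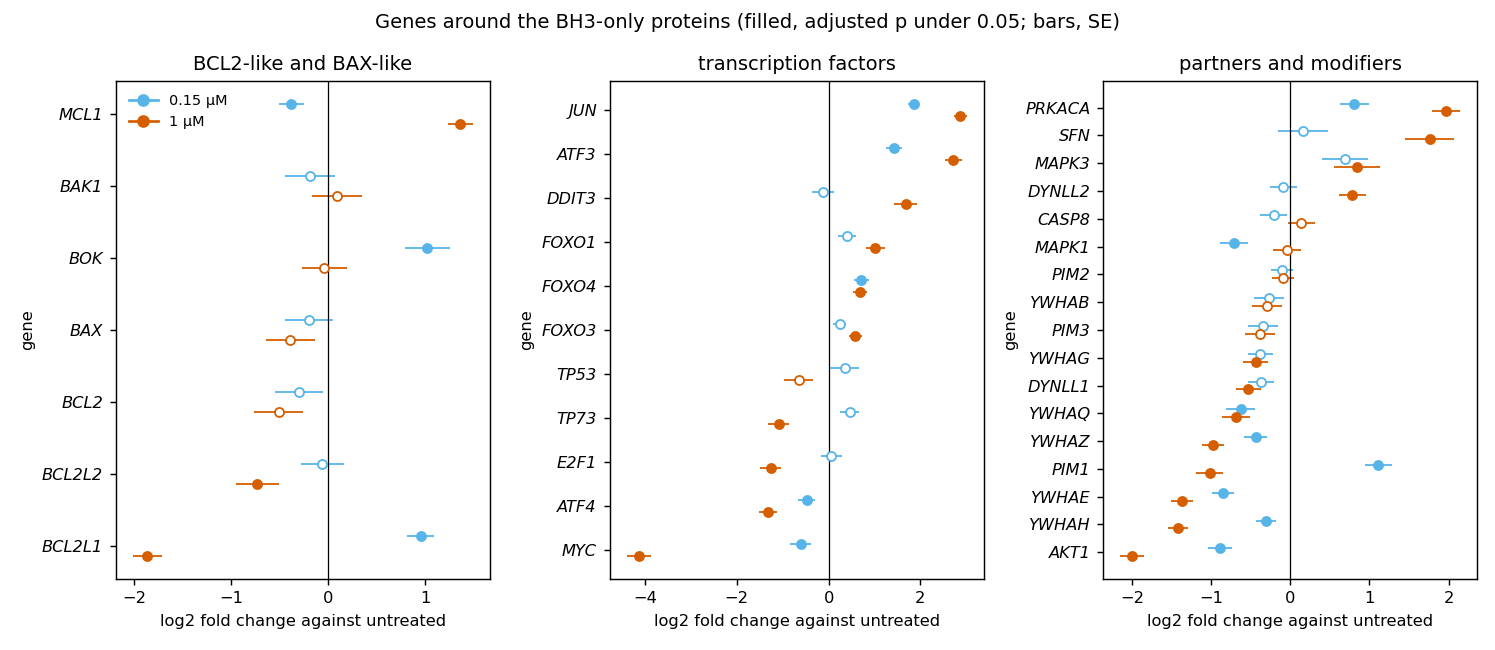
Log2 fold change against untreated cells (horizontal axes, bars are SE) at 0.15 and 1 µM martinostat for the tested genes of the 3 lists around the BH3-only proteins, ordered by the value at 1 µM; filled points have an adjusted p under 0.05. MCL1 and BCL2L1 lie on opposite sides of 0 at both doses, with 1.36 and -1.86 at 1 µM.

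All 8 members are protein-coding genes, and positions were taken on hg38. BID (chr22:17734138-17774770, minus strand) and BIK (chr22:43110750-43129712, plus strand) share chromosome 22 but lie far apart. BMF lies at chr15:40087890-40108892, of whose exon bases 8.46% are under BMF-AS1, which had 0 counts in all libraries. BBC3 lies at chr19:47220822-47232766, HRK at chr12:116856144-116881441 and PMAIP1 at chr18:59899996-59904305. BCL2L11 lies at chr2:111119378-111168444. BAD lies at chr11:64269830-64284704, and 23.7% of its exon bases are under GPR137 on the other strand, whose mean was 36.2 CPM without treatment and 49.3 CPM at 1 µM. Without a known strand setting, reads of BAD and GPR137 in that stretch cannot be told apart.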

How the data were processed

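K562 mRNA was measured in 15 libraries of 5 groups. The authors trimmed reads with Trim Galore 0.6.10 and Trimmomatic, aligned them to hg38 with HISAT2 2.2.1 and counted fragments per GENCODE gene with featureCounts 1.5.3 (versions from the submitters' processing notes); the strand setting of the counting is not given in the sources used here. The deposited count table holds raw counts. The deposited FPKM tables were checked only: the authors divided by 1 length per gene, equal within 1% to the genomic span in 94.7% of 27672 genes.

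Tests used edgeR 4.0.16 under R 4.3.3 (filterByExpr, which left 23711 of 60649 genes, TMM scaling, robust quasi-likelihood F test). All libraries entered 1 fit, in which the group was the single term, and Benjamini-Hochberg adjusted p under 0.05 over all genes made a call. CPM used the TMM-scaled library sizes, with 2 added as prior count for log2 CPM in correlations. TPM used merged exons of GENCODE on hg38. Symbols were found for 99.8% of identifiers. The fit was tested on simulated counts.

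The members and the gene lists were chosen with earlier results of these data known. Named were all members, the 3 genes nearest in pattern to each (1 of them is not reported here), and, from each list, the 2 highest and 2 lowest called at 1 µM. Replicate numbers were checked for pairing: same-numbered libraries deviated together (r over 0.1 in all 3 numbers) in 1 of 10 pairs of groups, 0.25 and 0.5 µM, with r of 0.266, 0.268 and 0.579. For that step a replicate block changed no call of a member. No columns of other samples were found, and no comparison columns by the authors were used. The lowest chi-square per degree of freedom between libraries of a group was 5.85, so all counted as separate samples.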

Additional observations from a re-analysis of the deposited data

How the results depend on the processing

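Each value was recomputed under 26 other settings, 2 of them added after the data were seen. Against untreated cells, no setting ended a call of BMF or BID at any dose, of BIK where the gene was kept, or of PMAIP1 at 0.5 and 1 µM. With 10 counts required in every library, 2 members were called at 0.15 µM, 3 at 0.25 µM, 1 from 0.15 to 0.25 µM and 4 in the test over 5 groups. This filter removed BIK and HRK, and the scaling factors were computed anew from the genes kept. BCL2L11 also lost its calls, at -0.38 and -0.10 for 0.15 and 0.25 µM, and PMAIP1 was gained at 0.25 µM (0.39). Fewer genes were tested, and over all genes the counts were 7517, 8851, 9784 and 9690 at the 4 doses and 11139 over the groups. Fitting only the libraries compared left 1 member and 1866 genes from 0.15 to 0.25 µM, and GC content as a term left 4 members at 1 µM; the cause was not tested. Leaving out each library gave 5 members at 0.15 µM, 4 to 5 at 0.25 µM, 6 to 8 at 0.5 µM and 4 to 8 at 1 µM, the 4 without the second library at 1 µM, when BCL2L11, BBC3 and HRK were lost. From 0.15 to 0.25 µM it gave 1 to 3 members, BIK being lost in 11 of 15 cases, and 1704 to 4022 genes against 2911 with all libraries, lower by over 1.5 times without any 1 of the libraries at 0.15 µM or the second at 0.25 µM.

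Of 1648 member values under these settings, 68 changed sign. BBC3 turned to 0.17 and 0.20 at 0.15 and 0.25 µM with library totals and to 0.07 and 0.10 with factors from genes of at least 10 CPM, and BCL2L11 at 0.25 µM to 0.14 and 0.03; those choices moved the median of all genes at that dose from 0.32 to 0.85 and 0.73. With GC content as a term BAD was -1.09, -0.06, -0.15 and -0.54 at the 4 doses, and from 0.25 to 0.5 µM BAD was -0.09 and BCL2L11 0.03. Leaving out a library gave BAD -0.03 to 1.43 in that step and BCL2L11 -0.05 to 0.21 between 0.15 and 1 µM. A replicate block gave 5, 4, 7 and 8 members at the 4 doses and 12136 genes at 0.15 µM: BCL2L11 at 0.25 µM was lost (adjusted p = 0.0515), BAD at 1 µM was gained (adjusted p = 0.0434), and BID from 0.15 to 0.25 µM was gained, with no other member's call against the untreated cells changed. Outside the step from 0.25 to 0.5 µM the libraries share only a number. Depth limits BIK and HRK in untreated cells, with 1 and 52 counts in all.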
